A study of Mus musculus with 28 samples.

Results

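The frontal cortex of mice with 2 copies of a Tardbp knock-in allele was compared with that of mice with 1 copy. The comparison sets 10 homozygous libraries (HOM, Q331K/Q331K) against 10 heterozygous libraries (HET, Q331K/+), which are 20 of the 28 libraries of the study. The other 8 libraries were wild type (WT, +/+). Genotypes were taken from the sample titles, and 16110 of 25900 gene identifiers passed the count filter and were tested. All 3 groups were frontal cortex of C57BL/6 mice aged 20 months, and polyA RNA was sequenced. HET mice keep 1 wild-type copy of Tardbp beside the mutant one, and HOM mice keep none. The comparison therefore asks what the second mutant allele, with loss of the last wild-type copy, changes in aged cortex. The labels give no sex, litter or batch, so none of these could be entered as a term.

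Tardbp encodes TDP-43, a mostly nuclear protein that binds RNA, prefers stretches of alternating U and G, and takes part in splicing and in keeping long neuronal pre-mRNAs intact. The protein limits its own level by binding the 3′ untranslated region (UTR) of its own transcript. In amyotrophic lateral sclerosis (ALS) and many cases of frontotemporal dementia it leaves the nucleus and aggregates. Q331K, a substitution known from familial ALS, lies in the disordered C-terminal part of the protein.

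The HET libraries held 45 to 74.9 M counted reads (median 55.78 M) and the HOM libraries 30.5 to 62.6 M (median 51.81 M), and the shallowest were HOM 2 at 30.5 M and HOM 1 at 32.8 M. Nothing in the labels says that separate animals gave the libraries of a group. The p-values therefore refer to the spread between libraries, part of which may be technical. No 2 of the 20 libraries agreed within sampling noise. The first 2 principal components held 13.1% and 9.95% of the variance, and HOM 3 stood at one end of the first, at 27.8, with HET 2 at the other, at -21.8. Markers of cortical layers were present in every library. The 14 upper-layer genes tested summed to 1154 to 1283 counts per 1000000 reads (CPM) in HET and 1116 to 1252 CPM in HOM, and the 20 deep-layer genes to 882 to 1000 and 793 to 1038 CPM. Markers of neighbouring tissue varied more between libraries. The 14 striatal genes summed to 508 to 720 CPM in HET and 472 to 987 CPM in HOM, and the 18 meningeal genes to 367 to 942 and 300 to 1353 CPM. Sums of the 16 genes of choroid plexus and ependyma, 12 of which were tested, were 10.5 to 14.9 and 10.8 to 25.3 CPM. None of these markers was at 0 in all 20 libraries.

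Tardbp (GRCm38 chromosome 4, 148612382 to 148627019, minus strand, ENSMUSG00000041459) did not pass the test between HOM and HET. It had 313, 327 and 358 CPM in the lowest, the median and the highest HET library, against 322, 348 and 381 CPM in HOM. The groups overlapped, with 3 HOM libraries above the highest HET library and 4 HET libraries below the lowest HOM library. HOM exceeded HET by 0.09 on the log2 scale (SE 0.030, edgeR quasi-likelihood test, adjusted p = 0.384, 95% interval 0.03 to 0.15). Reads from mutant and wild-type copies are counted together, so this level says nothing of whether a genotype label is right. Masp2 lies on the opposite strand and shares exonic positions with Tardbp. The log2 fold change was -0.02 for Mapt, which encodes tau (edgeR adjusted p = 0.878), -0.04 for Atxn2, which encodes the RNA-binding protein ataxin-2 (adjusted p = 0.717), and -0.06 for Sort1, which encodes the sorting receptor sortilin and is a known splicing target of TDP-43 (adjusted p = 0.44).

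Between HOM and HET, 6 genes changed, which is 0.0372% of the genes tested. D2hgdh and Rlbp1 rose with the second allele (0.0124% of genes were called higher), and 4933439F18Rik, Spop, Pigk and Scg5 fell (0.0248% called lower). D2hgdh encodes a mitochondrial enzyme that turns D-2-hydroxyglutarate into 2-oxoglutarate, and Rlbp1 a carrier of retinaldehyde known best from the retina. 4933439F18Rik carries the name Gid4 in the reference annotation, and Gid4 is a substrate receptor of the CTLH ubiquitin ligase. Spop brings substrates to cullin-3 ubiquitin ligases, Pigk is the catalytic subunit of the transamidase that attaches proteins to glycosylphosphatidylinositol (GPI) anchors, and Scg5 is a chaperone of the prohormone convertase Pcsk2. The changes ran from an 18.7% decrease to a 24.2% increase. In bulk tissue, fewer cells of a type and less RNA per cell cannot be told apart.

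4933439F18Rik (ENSMUSG00000018415, plus strand of chromosome 11, 60417145 to 60450927) had the smallest p. Its lowest, median and highest library stood at 67.4, 72.2 and 76.0 CPM in HET and at 55.4, 59.4 and 61.8 CPM in HOM. All 10 HOM libraries lay below every HET library. On the log2 scale the difference was -0.30 (SE 0.023, edgeR adjusted p = 1.17e-09), and it lay between -0.31 and -0.29 over the 31 alternative analyses.

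D2hgdh (ENSMUSG00000073609, plus strand of chromosome 1, 93825240 to 93852348) had 7.77, 8.50 and 9.22 CPM in the lowest, median and highest HET library and 9.73, 10.7 and 11.4 CPM in HOM. Again the groups did not overlap, with all 10 HOM libraries above every HET library. Its log2 fold change was 0.31 (SE 0.038, edgeR adjusted p = 2.75e-05).

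Spop (ENSMUSG00000057522, plus strand of chromosome 11, 95414080 to 95493406) changed least of the 6 and was measured most precisely. HET libraries ran from 183 CPM over a median of 187 to 194 CPM, and HOM libraries from 164 over 173 to 179 CPM. The groups did not overlap. The difference was -0.12 on the log2 scale (SE 0.019, edgeR adjusted p = 0.00236).

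Rlbp1 (ENSMUSG00000039194, minus strand of chromosome 7, 79374871 to 79387027) ran from 20.7 over 22.8 to 24.9 CPM in HET and from 24.3 over 27.02 to 28.6 CPM in HOM. Of the 10 HOM libraries, 9 lay above the highest HET library, HET 1. HOM exceeded HET by 0.24 on the log2 scale (SE 0.044, edgeR adjusted p = 0.023).

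Pigk (ENSMUSG00000039047, plus strand of chromosome 3, 152714100 to 152980408) had 63.6, 70.8 and 73.1 CPM in HET and 60.1, 63.0 and 71.0 CPM in HOM as lowest, median and highest. The groups overlapped: 6 HOM libraries lay below HET 10, the lowest HET library, and HOM 2 was the highest of the other 4. HOM lay below HET with a log2 difference of -0.14 (SE 0.026, edgeR adjusted p = 0.0268). An exon of Pigk overlaps St6galnac5 on the other strand, and without the authors' strand setting the reads of the pair cannot be told apart.

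Scg5 (ENSMUSG00000023236, minus strand of chromosome 2, 113776362 to 113829121) ran from 168 over 178 to 192 CPM in HET and from 155 over 161 to 175 CPM in HOM. HOM 1 was the single HOM library above the lowest HET library. The log2 fold change was -0.15 (SE 0.029, edgeR adjusted p = 0.0268).

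**Figure D1:**
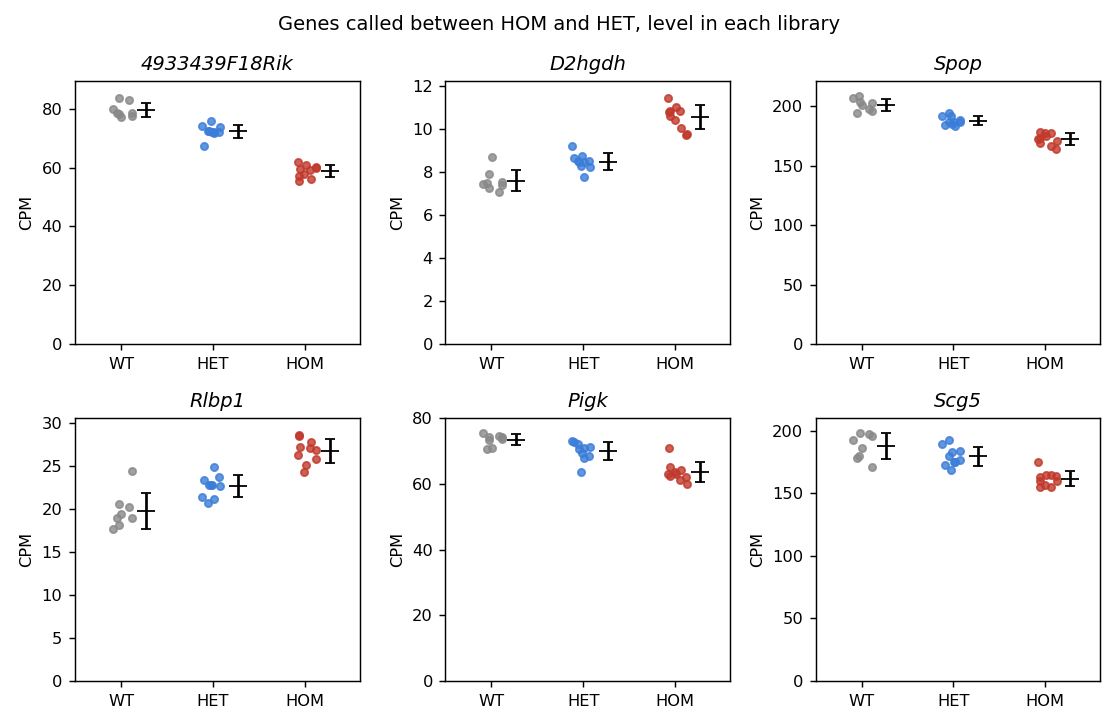
Level of the 6 genes called between HOM and HET in each library, in CPM (y axes from 0), with 8 WT, 10 HET and 10 HOM libraries as points and the mean ± SD beside them. HOM and HET do not overlap for 4933439F18Rik, D2hgdh and Spop, and 1 or more libraries overlap for Rlbp1, Pigk and Scg5.

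4933439F18Rik, D2hgdh and Spop stayed called in all 31 alternatives. The other 3 calls were lost when a single library was left out: Rlbp1 in 6 of 20 such fits (adjusted p 0.0508 to 0.0625), Pigk in 10 (0.0510 to 0.0777) and Scg5 in 11 (0.0502 to 0.0628). With the mean levels of 4 neighbouring tissue lists as covariates, edgeR's adjusted p was 0.332 for Rlbp1, 0.230 for Pigk and 0.537 for Scg5, at log2 fold changes of 0.22, -0.15 and -0.11. Leaving out HET 10 gave 15 called genes and leaving out HOM 1 gave 12. Only 3 genes were called when HET 2, HET 7, HOM 3, HOM 8 or HOM 10 was the library left out.

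**Figure D2:**
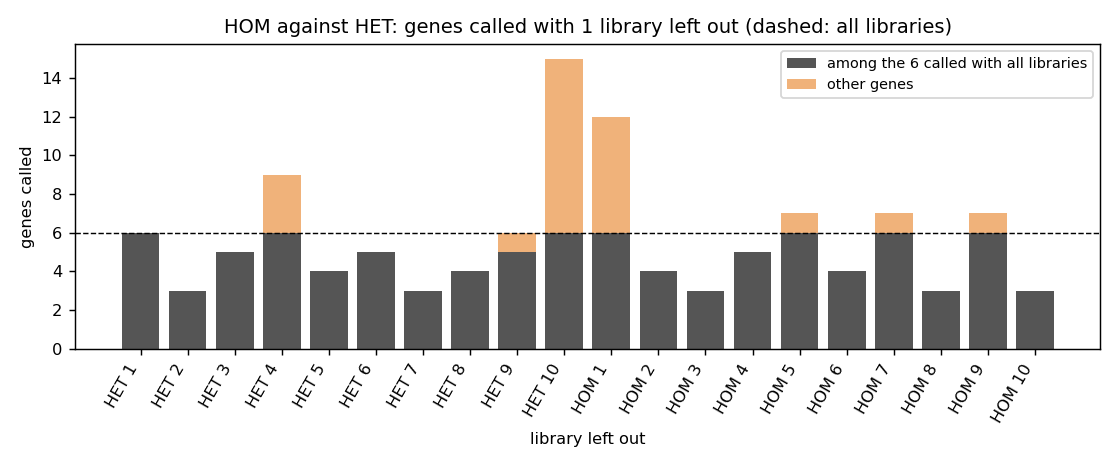
Number of genes called between HOM and HET (y axis) when the library on the x axis is left out, with genes among the 6 called from all libraries in dark and other genes in light, and a dashed line at 6. The count runs from 3 to 15 and is highest without HET 10.

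Stretches of alternating T and G were looked for in the transcripts of the called genes, since TDP-43 prefers such RNA. The motif was TGTGTGTG on the RNA strand, written with T for U, in the longest coding transcript of each gene tested in GENCODE vM21. It was present in 3851 of 14879 transcripts (25.9%), and in 3 of the 6 called genes, all 3 of them genes that fell. A run of 20 or more alternating bases was present in 654 transcripts (4.4%), among them those of 4933439F18Rik and Spop. Introns were not searched, and a match is a description of the letters, not of binding. The runs are shown with up to 3 flanking bases, in capitals where T and G alternate. That of 4933439F18Rik is 40 bases long in the 5′ UTR and is shown in part. That of Spop has 24 bases in the 5′ UTR, and 1 of 4 coding transcripts of Spop holds a run of 20 or more. Pigk has 8 bases in the 3′ UTR, and the run of Tardbp, with 9 bases in its 3′ UTR, is shown for comparison. D2hgdh, Rlbp1 and Scg5 did not hold the motif in these transcripts.
4933439F18Rik: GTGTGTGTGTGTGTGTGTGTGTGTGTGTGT
Spop: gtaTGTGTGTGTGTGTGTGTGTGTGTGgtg
Pigk: gttTGTGTGTGctg
Tardbp: ataGTGTGTGTGgac

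The step from WT to 1 allele was set beside the step from 1 to 2 alleles. Both steps use the same HET libraries, and the 6 genes were chosen on the second step, so the sizes are a description. In all 6 genes both steps had the same sign and the second was larger. 4933439F18Rik went from 79.6 ± 2.45 CPM in WT (SD, n = 8) over 72.4 ± 2.2 in HET (n = 10) to 58.8 ± 2.08 in HOM (n = 10), or -0.14 and then -0.30 on the log2 scale. D2hgdh went from 7.61 ± 0.498 over 8.50 ± 0.375 to 10.6 ± 0.557 CPM, with steps of 0.16 and 0.31. For Spop the steps were -0.10 and -0.12, for Rlbp1 0.19 and 0.24, for Pigk -0.07 and -0.14, and for Scg5 -0.06 and -0.15. Between 55.2% (Spop) and 70.8% (Scg5) of the log2 difference between HOM and WT thus lay between HET and HOM.

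The difference between the 2 steps was tested in the same fit. It was -0.16 for 4933439F18Rik (SE 0.041) and 0.15 for D2hgdh (SE 0.068), with unadjusted p of 0.0004 and 0.0327, and adjusted p = 0.9999 in edgeR for each of the 6 genes. Over all genes, 0 passed this test by edgeR and 456 had an unadjusted p under 0.05 (2.83%). Among the 10 genes nearest to the threshold on the higher side, described further on, 4 had steps of opposite sign: Siglech (-0.03, then 0.19), Cx3cr1 (-0.02, then 0.20), Vav1 (-0.05, then 0.25) and Gna15 (-0.02, then 0.35). None of these first steps exceeded its standard error.

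**Figure D3:**
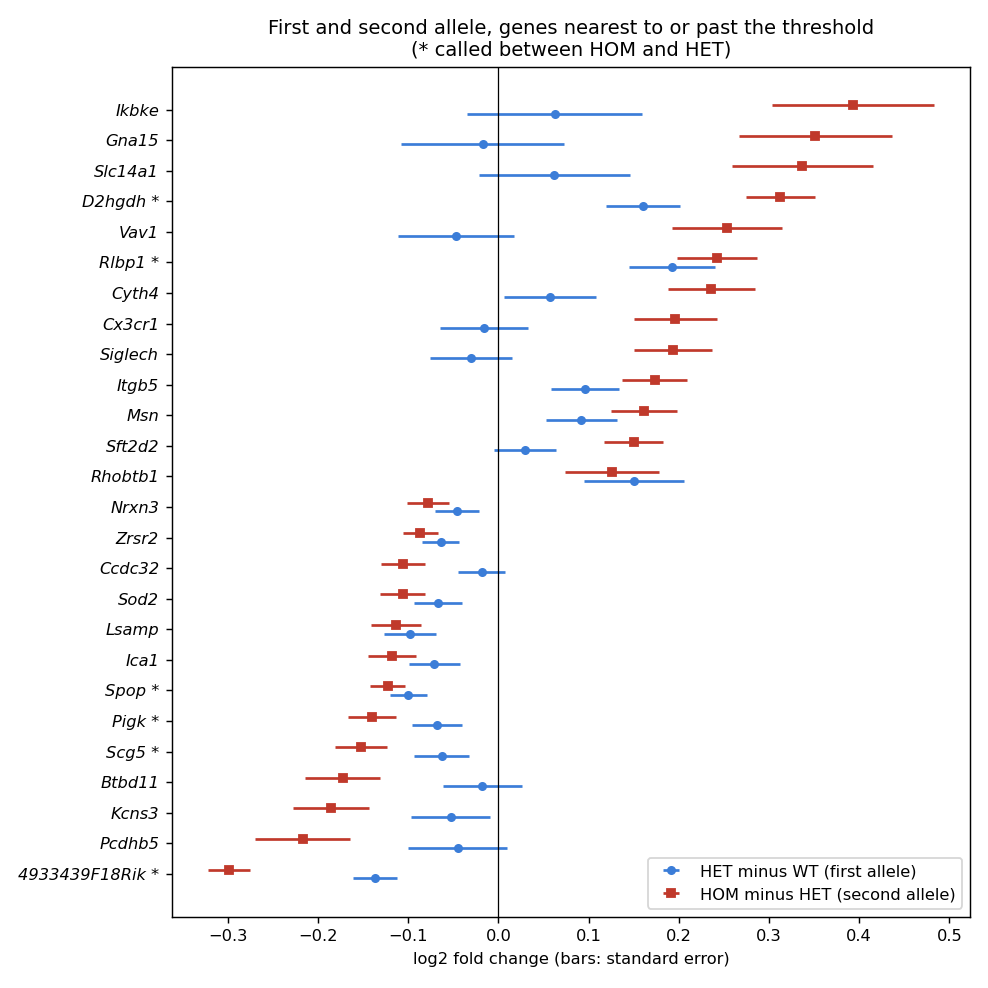
Log2 fold change (x axis, bars are standard errors) of HET minus WT in blue and HOM minus HET in red, for the 6 called genes, marked with an asterisk, and genes nearest to the threshold (y axis). The list members Rhobtb1 and Nrxn3, which are farther from the threshold, are drawn as well. Both steps share the HET libraries. The red point lies farther from 0 than the blue one for each of the 6 called genes, while Siglech, Cx3cr1, Vav1 and Gna15 have points on opposite sides of 0.

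Over all genes the differences were small. The median log2 difference between HOM and HET was 0.00, the quartiles were -0.03 and 0.05, and the median SE of genes with at least 1 CPM was 0.042. Of 13927 such genes, 178 differed by more than 1.2-fold in either direction. At an unadjusted p under 0.05 there were 1375 genes (8.54%), 771 of them higher (4.79%) and 604 lower (3.75%) in HOM. DESeq2 called 49 genes (0.32%) and limma voom 53 (0.329%). They shared 35 genes, 71.4% of DESeq2's calls and 66.0% of voom's, and the 35 included all 6 genes called by edgeR. A fit of the HOM and HET libraries alone called 6 genes (0.0378%), with Pigk lost and D330050G23Rik added. Genes at an unadjusted p under 0.05 numbered 1983 with voom and 1782 without HOM 1 and HOM 2. There were 1069 with 2 surrogate variables, 907 with the neighbouring tissue covariates and 1109 to 1648 when 1 library was left out. Counts of list members from different fits therefore have different backgrounds.

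With clone-like names left aside, the genes just outside the threshold on the higher side were Cyth4 and Itgb5, both at an edgeR adjusted p of 0.0604. Cyth4, which encodes an activator of ARF GTPases found in blood cells and microglia, ran from 9.34 over 10.5 to 12.1 CPM in HET and from 11.4 over 12.5 to 13.4 CPM in HOM, with 6 HOM libraries above the highest HET library. Itgb5, an integrin subunit, ran from 41.8 over 44.9 to 53.1 and from 48.0 over 51.5 to 54.0 CPM. HET 10 held the highest HET value of both genes. It was the single HET library above the lowest HOM library for Itgb5, while HET 1 and HET 10 were above it for Cyth4. The other genes with the smallest p on this side had adjusted p from 0.117 to 0.126 and log2 fold changes from 0.15 to 0.39. They were Sft2d2 (0.15), the microglial lectin Siglech (0.19), the innate immune kinase Ikbke (0.39), the actin linker moesin Msn (0.16), the urea transporter Slc14a1 (0.34), the fractalkine receptor Cx3cr1 (0.20), the exchange factor Vav1 (0.25) and the G protein subunit Gna15 (0.35). DESeq2 and voom called all 10 of these genes.

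On the lower side, 8 genes near the threshold, clone-like names again left aside, had adjusted p from 0.118 to 0.126. Zrsr2, a factor of minor intron splicing, had a log2 fold change of -0.09, and 9 HET libraries lay above the highest HOM library. Kcns3, a modulatory potassium channel subunit of parvalbumin interneurons, had -0.19, with 8 HOM libraries below the lowest HET library. Sod2, the mitochondrial superoxide dismutase, had -0.11, the adhesion gene Lsamp -0.11, the protocadherin Pcdhb5 -0.22, Ica1 -0.12, Ccdc32 -0.11 and Btbd11 -0.17. All 8 were called by DESeq2, and 7 by voom, which gave Lsamp an adjusted p of 0.0609. Pcdhb5 belongs to a cluster of similar genes, so the authors' counting may have split its reads.

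Of the genes called by both other tools but not by edgeR, D330050G23Rik was nearest, with 2.96 ± 0.18 CPM in HET (SD, n = 10), 3.65 ± 0.255 CPM in HOM (n = 10) and an edgeR adjusted p of 0.0549. Its log2 fold change was 0.30 and 9 HOM libraries lay above the highest HET library. Further genes of this kind were the microglial genes Olfml3 (0.23) and Itgam (0.16), the phosphatase Ptprz1 of glial precursors (0.13), the mitochondrial topoisomerase Top1mt (0.18), 1600021P15Rik (-0.12), Sfmbt1 (-0.11), Arhgap15 (-0.21), Gm15319 (0.53) and Trim43c (0.43). Trim43c, named Trim43a in the reference annotation, belongs to a family of near-identical copies and its value is uncertain. 1600021P15Rik carries the name Mb21d2 there. Gm15319 was lower in HET than in WT, at -0.30 (SE 0.132), and HOM exceeded WT by 0.23 (SE 0.131).

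Genes that work with the 6 called genes were examined next, as lists built around each. Beside 4933439F18Rik, 0 of the other 9 CTLH ligase genes tested had an unadjusted p under 0.05, where 8.54% of all genes had one. The list median was -0.03. The muskelin gene Mkln1 was nearest, at -0.06 (unadjusted p = 0.057), the scaffold gene Ranbp9 had -0.01 and the RING subunit gene Rmnd5a -0.04. Of 27 genes of cullin-3 ligases, Rhobtb1 (0.13) and the RING subunit Rbx1 (-0.04) had an unadjusted p under 0.05 beside Spop. With Spop counted, 3.70% of the list was higher and 7.41% lower, beside 4.79% and 3.75% of all genes. Cul3 itself had -0.02 and the Spop paralogue Spopl -0.06.

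Around D2hgdh, 20 enzymes and carriers of 2-hydroxyglutarate and 2-oxoglutarate were tested. Of these, 6 were higher at an unadjusted p under 0.05 (30%, beside 4.79% of all genes) and 1 was lower, and the list median was 0.02. That share includes D2hgdh itself, around which the list was built because it was called. Without HOM 1 and HOM 2, the shallowest libraries, 5 were higher and 5 lower at a median of 0.00, and voom gave 5 higher and 2 lower, also at 0.00. The higher ones beside D2hgdh were the glutamate dehydrogenase Glud1 (0.08, edgeR adjusted p = 0.199), the isocitrate dehydrogenases Idh1 (0.06) and Idh2 (0.10), Phgdh (0.12), which starts serine synthesis, and Adhfe1 (0.13), which forms D-2-hydroxyglutarate. The NAD-dependent isocitrate dehydrogenase subunit Idh3a had -0.07.

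The lists of the other 3 called genes were examined in the same way. Of 25 retinoid genes, Rlbp1, the plasma retinol carrier Rbp4 (0.16), the retinol dehydrogenase Rdh5 (0.10) and the retinol uptake receptor Stra6 (0.38) were higher at an unadjusted p under 0.05 (16%, beside 4.79% of all genes), and the median was 0.09. That share includes Rlbp1 itself, around which the list was built. With the neighbouring tissue covariates 1 member was higher and the median was 0.04. Among 24 genes of GPI anchor synthesis, Pgap2 (0.08) was the single member beside Pigk with an unadjusted p under 0.05. With Pigk counted, 4.17% of the list was higher and 4.17% lower, beside 4.79% and 3.75% of all genes. The other transamidase subunits Pigs, Pigt, Pigu and Gpaa1 had 0.05, 0.04, 0.02 and -0.04. Of 22 dense-core granule genes, none but Scg5 had an unadjusted p under 0.05 (4.55% lower with Scg5 counted, beside 3.75% of all genes). Pcsk2, the convertase that Scg5 assists, had -0.05 (unadjusted p = 0.1).

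Microglial markers had higher values in HOM than in HET as a list, although 0 of 24 passed edgeR's adjusted test. DESeq2 called 5 of them higher and voom 4. At an unadjusted p under 0.05, 16 were higher (66.7%, beside 4.79% of all genes) and 0 lower. The list median was 0.12, 23 of 24 members were positive, and the same members had a median of 0.05 for HET over WT. The members with the smallest p were Siglech, Cx3cr1, Olfml3, the growth factor receptor Csf1r (0.15), Itgam and the complement gene C1qc (0.18). The receptor genes P2ry12 (0.05) and Trem2 (0.01) and the marker Fcrls (-0.01) were among the 8 above an unadjusted p of 0.05.

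Library by library, the mean log2 CPM of the microglial markers was 4.56 ± 0.078 in HET (SD, n = 10) and 4.68 ± 0.087 in HOM (n = 10). The HET libraries ran from 4.44 (HET 7) to 4.70 (HET 3) and the HOM libraries from 4.59 (HOM 7) to 4.89 (HOM 10). All 10 HOM libraries lay above the HET median and 3 above the highest HET library. Without HOM 10, 9 members were higher at an unadjusted p under 0.05 and the median was 0.09. With the neighbouring tissue covariates these values were 7 and 0.10, in a fit where 907 of all 16110 genes had such a p, against 1375 in the main fit. The part of neighbouring tissue in the difference was not tested further. Genes tied to disease-associated microglia had a median of 0.06, with 6 of 27 higher (22.2%, beside 4.79% of all genes). With the covariates 1 was higher at a median of 0.01, with 2 surrogate variables 1 at 0.02, and when 1 library was left out 2 (without HET 9) to 8 (without HET 3). Cd63 (0.11), Ctsz (0.10), Cd68 (0.11), Lyz2 (0.22), Axl (0.07) and Cd52 (0.20) were the 6, and Apoe (0.06), Cst7 (0.03) and Clec7a (-0.01) were not among them.

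Markers of parvalbumin interneurons, fast-spiking inhibitory cells of the cortex, had lower values in HOM. None of 12 passed edgeR's adjusted test, while DESeq2 called 2 lower and voom 3. At an unadjusted p under 0.05, 9 were lower (75%, beside 3.75% of all genes) and 0 higher, with a list median of -0.16 and a median of -0.03 for HET over WT. Pvalb, which encodes the calcium buffer parvalbumin, ran from 53.4 over 70.2 to 77.2 CPM in HET and from 47.5 over 59.5 to 69.6 CPM in HOM. Its groups overlapped, with 3 HOM libraries below the lowest HET library and 5 HET libraries above the highest HOM library. The log2 fold change of Pvalb was -0.26 (SE 0.066, adjusted p = 0.163 in edgeR, 0.0359 in DESeq2 and 0.0371 in voom).

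The other parvalbumin markers at an unadjusted p under 0.05 were Kcns3 (-0.19), the neuregulin receptor Erbb4 (-0.15), the mitochondrial gene Cox6a2 (-0.26), the fast potassium channels Kcnc1 (-0.09) and Kcnc2 (-0.09), the transcription factor Lhx6 (-0.10), Il1rapl2 (-0.17) and the synaptotagmin Syt2 (-0.21). Mybpc1 had -0.19, and Tac1, which is also a striatal marker, had 0.32. Of the 12 members, 10 had a negative and 2 a positive log2 fold change. The mean log2 CPM of the list was 4.53 ± 0.067 in HET and 4.42 ± 0.073 in HOM (SD, n = 10 each), and 5 HOM libraries lay below the lowest HET library. Left-out libraries moved the list median between -0.18 and -0.13, and 6 members were lower without HET 2. With the neighbouring tissue covariates the median was -0.11 and 4 members were lower, while 907 of all genes had such a p, against 1375 in the main fit.

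Other inhibitory neuron genes did not share one direction. Of 25, Sst, a marker of another interneuron class, was higher at 0.18 (edgeR adjusted p = 0.181), and Gad1, which makes GABA in all inhibitory neurons, was lower at -0.14 (adjusted p = 0.171, 0.0398 in voom). Sst ran from 144 over 158 to 181 CPM in HET and from 164 over 176 to 219 CPM in HOM. Gad1 ran from 376 over 405 to 421 and from 335 over 363 to 408 CPM, with 7 HOM libraries below the lowest HET library. Gad2 (-0.01), Vip (-0.08) and Slc32a1 (-0.03) had an unadjusted p above 0.05, and the list median was 0.00. The higher Penk (0.45) is also a striatal marker.

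**Figure D4:**
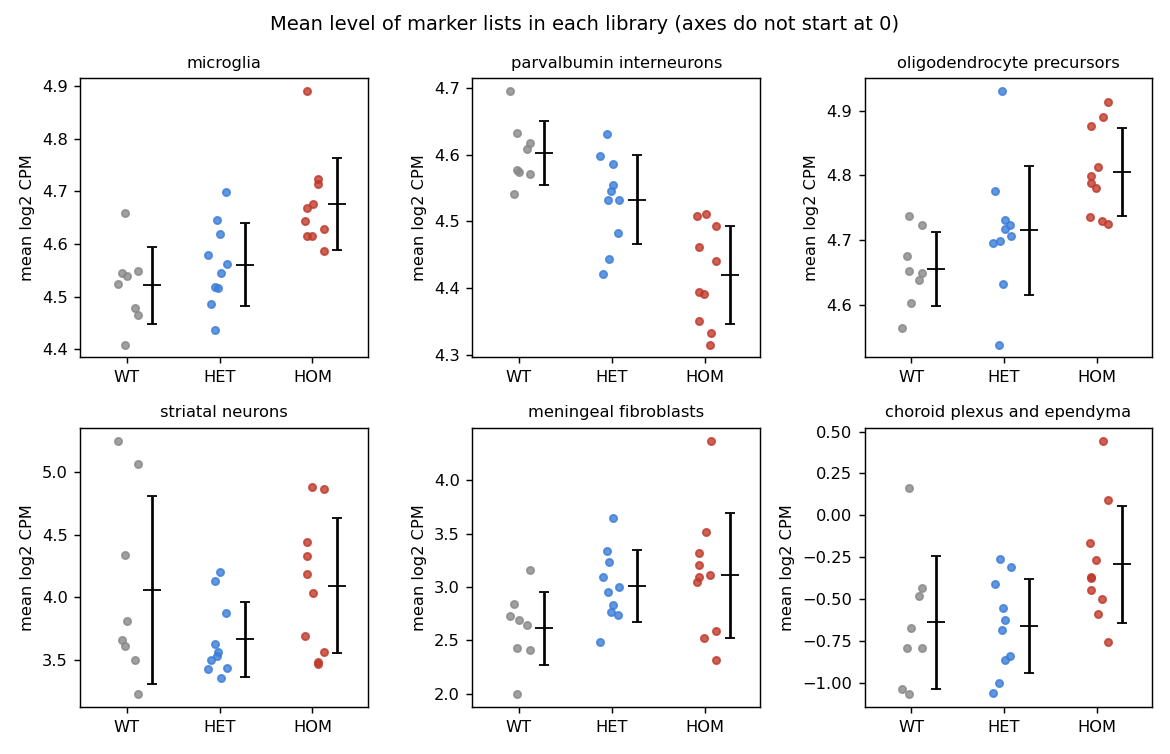
Mean log2 CPM over the members of 6 marker lists (y axes, not from 0) in each WT, HET and HOM library (points), with mean ± SD beside each group. All 10 HOM libraries lie above the HET median for microglia, 5 lie below the lowest HET library for parvalbumin interneurons, and striatal and meningeal markers spread most between libraries.

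Among other glial lists, oligodendrocyte precursors had a median of 0.09, with 4 of 12 members higher at an unadjusted p under 0.05 (33.3%, beside 4.79% of all genes). With the neighbouring tissue covariates that median was 0.04 and 3 were higher, and without HET 10 it was 0.12 and 7 were higher. The 4 were Ptprz1 (0.13), the growth factor receptor Pdgfra (0.12), Matn4 (0.14) and C1ql1 (0.21), while Olig1 (0.01) and Olig2 (0.00) were not. Astrocytes had a median of 0.08 and 4 of 21 higher (19.0%, against the same 4.79%), which were the gap junction gene Gja1 (0.10), Mlc1 (0.09), the water channel Aqp4 (0.15) and the glutamate transporter Slc1a3 (0.10). Gfap had 0.15 with an unadjusted p of 0.29. Without HET 10, 8 astrocyte genes were higher. Reactive astrocyte genes had 2 of 29 higher (6.9%, near the share of all genes), Ggta1 (0.22) and Aspg (0.23). Endothelial and mural cells had 3 of 25 (12%), Emcn (0.14) and Cdh5 (0.10) among them. That count was as low as 1 when 1 library was left out, for example HET 1, HOM 3 or HOM 10. In myelin genes 0 of 26 had an unadjusted p under 0.05 in either direction, and DESeq2 and voom called 0 of them.

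Markers of striatum, of choroid plexus and ependyma, and of meninges had the highest list medians. The sums given above show that their levels varied between libraries. Striatal genes had a median of 0.44 for HOM over HET and of -0.51 for HET over WT, 2 differences that share the HET libraries. Of 14, 4 were higher at an unadjusted p under 0.05 (28.6%, beside 4.79% of all genes). They were Isl1 (1.35), the dopamine receptor Drd2 (1.17), Penk (0.45) and the adenosine receptor Adora2a (0.90). Isl1 was barely detected, with a mean of 0.173 CPM in HET and 0.434 CPM in HOM. The number of higher members was 0 without HOM 6 and 7 without HOM 7. Drd2 ran from 0.995 over 1.65 to 4.37 CPM in HET and from 1.058 over 4.35 to 11.1 CPM in HOM, with 5 HOM libraries above the highest HET library. Genes of choroid plexus and ependyma had a median of 0.25. Of 12, Clic6 (0.75) and Tmem212 (1.64) were higher at an unadjusted p under 0.05 (16.7%, beside 4.79% of all genes). Tmem212 had a mean of 0.141 CPM in HET and 0.419 CPM in HOM, with HOM 3 highest at 1.61 CPM. Meningeal genes had a median of 0.19, which was -0.03 without HOM 3, and 0 of 18 had such a p. Of red blood cell genes, 0 of 5 had such a p and the median was 0.00. DESeq2, voom and edgeR called 0 members of these 4 lists.

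**Figure D5:**
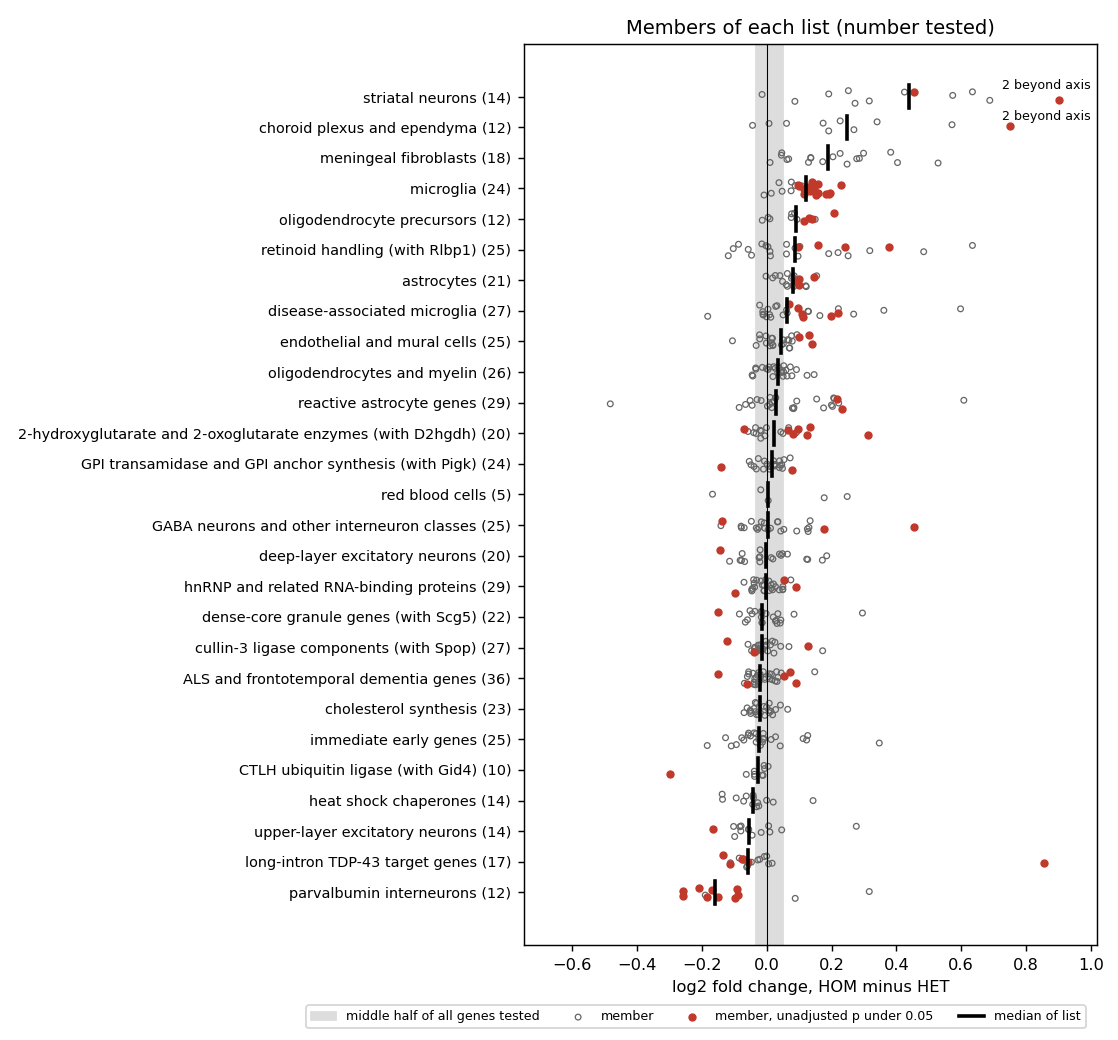
Log2 fold change of HOM over HET (x axis) of each member of 27 gene lists (y axis, number tested in brackets), filled where the unadjusted p is under 0.05, with the list median as a bar and the range between the quartiles of all genes tested as a grey band. Microglia have 16 filled points above 0 and parvalbumin interneurons 9 below 0, and 4 striatal, choroid or ependymal genes lie beyond the axis.

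Genes with long introns that TDP-43 is known to bind and maintain had a median of -0.06. Of 17, 5 were lower at an unadjusted p under 0.05 (29.4%, beside 3.75% of all genes) and 1 was higher. With the neighbouring tissue covariates 3 were lower and the median was -0.02, and with 2 surrogate variables 4 were lower at a median of -0.02. Those fits had 907 and 1069 of all genes at such a p, against 1375 in the main fit. Among the lower ones were the adhesion genes Lsamp (-0.11) and Ntm (-0.06), the neurexin Nrxn3 (-0.08) and the ephrin Efna5 (-0.13). The higher one was Chat (0.85), with 0.525 CPM in HET. Lsamp ran from 262 over 286 to 297 CPM in HET and from 246 over 260 to 276 CPM in HOM, with 5 HOM libraries below the lowest HET library. Nrxn3 ran from 242 over 250 to 259 and from 225 over 235 to 253 CPM, with 8 HOM libraries below the lowest HET library.

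Long genes as such were counted next. Of 194 genes tested that span 500 kb or more, 29 were lower (14.9%) and 3 higher at an unadjusted p under 0.05, with a median of -0.02. With the neighbouring tissue covariates, 12 were lower, while 907 of all genes had such a p in either direction, against 1375 in the main fit. Lsamp, Nrxn3, Erbb4 and Arhgap15 are among these long genes, so the lists overlap. Of 229 genes tested within 10 Mb of Tardbp, 12 were higher (5.24%) and 4 lower (1.75%), with a median of 0.00, beside 4.79% and 3.75% of all genes. These counts depended on the analysis, as did those of all genes. Voom gave 12 higher and 17 lower, with 1983 of all 16110 genes at such a p in either direction, against 1375 in the main fit. Without HOM 1 and HOM 2, 7 were higher and 20 lower, with 1782 of all 16100 genes at such a p. Without HOM 1 alone the counts were 9 and 12, with 1648 of all 16108 genes.

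The remaining lists had medians from -0.06 to 0.00. Of 36 ALS and frontotemporal dementia genes, 3 were higher at an unadjusted p under 0.05 (8.33%, beside 4.79% of all genes), Tardbp, the RNA-binding protein gene Hnrnpa1 (0.05) and the motor protein gene Kif5a (0.07), and 2 were lower (5.56%, beside 3.75%), Erbb4 and the kinase gene Tbk1 (-0.06). Without HOM 1 and HOM 2 the counts were 2 higher and 7 lower, and with voom 3 and 6. Those fits had 1782 and 1983 of all genes at such a p, against 1375 in the main fit. Stmn2 (-0.01), Sod1 (0.02) and Grn (0.03) were among the others. Of 29 hnRNP and related genes, Tardbp and Hnrnpa1 were higher (6.90%, beside 4.79% of all genes). The neuronal RNA-binding protein gene Elavl4 was lower at -0.10 (3.45% of the list, beside 3.75% of all genes). Upper-layer neurons had 1 of 14 lower (7.14%, beside 3.75% of all genes), Cux1 (-0.17), with a median of -0.06 (5 lower with voom). Deep-layer neurons had 1 of 20 lower (5%, beside the same 3.75%), Parm1 (-0.14), with a median of 0.00. Immediate early genes (25), cholesterol synthesis (23) and heat shock chaperones (14) held 0 members at an unadjusted p under 0.05, with medians of -0.02, -0.02 and -0.04, and edgeR, DESeq2 and voom called 0 of them. Without HOM 8, 4 of the chaperones had such a p, all lower.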

How the data were processed

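The submitters' processing notes list Trim Galore 0.4.3, HISAT2 2.0.5 and the GRCm38 build. Which counter, strand option and annotation release produced the table is not given in the sources used here. Raw read counts per gene, not normalised, are what the authors deposited. The 57 identifiers on several rows (122 of 25965 rows) were summed, which left 25900, and all 28 value columns matched a title.

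All 28 libraries entered 1 fit with 1 mean for each genotype and no covariates (edgeR 4.0.16, R 4.3.3: filterByExpr, TMM, robust quasi-likelihood test, two-sided). Benjamini-Hochberg adjustment covered all 16110 genes, and the threshold was 0.05. Levels are CPM of TMM-scaled library sizes with the SD between libraries, and list means use log2 CPM with a prior count of 2. The biological coefficient of variation was 8.46%. The fit was tested on simulated data.

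Named genes were Tardbp, all called genes, up to 12 per direction with the smallest p and at least 1 CPM (without clone-like names), up to 10 called by both DESeq2 and voom, up to 2 members per list with unadjusted p under 0.05, and Mapt, Pvalb, Sort1 and Atxn2. Further list members were named after their values were seen. A few genes that the rule or the lists take are not reported here. The genes compared and the 27 lists were chosen with earlier results of these data known, and lists got no test of their own. Among 190 pairs of the 20 libraries, chi-square per degree of freedom was at least 6.36 (15145 genes).

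The 31 alternatives were DESeq2 1.42.0, limma 3.58.1 voom with quality weights, DESeq2 size factors, no count filter, 1 CPM in 8 libraries, the 20 HOM and HET libraries alone, the replicate number as a block, 2 surrogate variables (sva 3.50.0), 4 neighbouring tissue scores as covariates, leaving out HOM 1 and HOM 2, leaving out HOM 3 and WT 6, and each HOM or HET library left out in turn. Sequences came from GENCODE vM21 and gene positions from the deposited table.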

Additional observations from a re-analysis of the deposited data

Results flagged for a closer look

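Values were looked at for single libraries far from the rest of their group, by the gap to the nearest library over the group's range. Of 186 groups of 10 libraries checked, 17 held such a library, and chance flags about 1 in 20 groups.

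HOM 10 was apart from the other HOM libraries in 7 of these. It had the highest Cx3cr1 (71.8 CPM) and Olfml3 (23.5 CPM), the highest mean log2 CPM of the microglial markers (4.89), and the lowest Sod2 (98.6 CPM), Parm1 (46.5 CPM), mean of ALS and frontotemporal dementia genes (6.69) and mean of CTLH ligase genes (6.30). HOM 1 was highest for Scg5 (174.7 CPM) and Sst (219.3 CPM), HOM 2 for Pigk (71.0 CPM), and HOM 3 for Tmem212 (1.61 CPM) and the mean of reactive astrocyte genes (2.88).

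Among HET libraries, HET 10 was highest for Tardbp (357.8 CPM) and Itgb5 (53.1 CPM). HET 9 was lowest for 4933439F18Rik (67.4 CPM) and highest for Top1mt (11.5 CPM). HET 3 was lowest for Sod2 (108.5 CPM).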

How the results depend on the processing

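The count of 6 genes called between HOM and HET was 49 with DESeq2 and 53 with limma voom, and 3 with 2 surrogate variables or with 4 neighbouring tissue scores as covariates, where D2hgdh, 4933439F18Rik and Spop remained. It ran from 3 to 15 over the 20 fits that left out 1 library, and from 6 to 9 in the other 7 alternatives. The log2 fold changes of the 63 named genes kept their sign wherever they were tested, which was in all 31 alternatives for 61 of them, in 30 for Isl1 and in 28 for Tmem212. List medians of the neighbouring tissues did not. The meningeal one went from 0.19 to -0.03 without HOM 3. With the tissue scores the striatal one went from 0.44 to -0.03 and that of choroid plexus and ependyma from 0.25 to -0.04. The scores are the means of these same lists, so that fall was built into the fit. The median of myelin genes (0.04) ranged from -0.16 to 0.08, and that of immediate early genes (-0.02) from -0.10 to 0.15. Microglia and parvalbumin interneurons kept the sign of their medians throughout, and so did several other lists. Among these were astrocytes (0.05 to 0.10), oligodendrocyte precursors (0.04 to 0.13) and upper-layer neurons (-0.07 to -0.01). Rlbp1 was lost in 10, Pigk in 13 and Scg5 in 13 of 31 alternatives, and the cause was not tested.

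Same-numbered HOM and HET libraries had correlated deviations over 0.1 in 3 of 10 pairs, with correlations from -0.16 to 0.13. Of the 10 HOM libraries, 3 correlated best with their own number. Whether replicate numbers pair the samples was not tested. The replicate block called 6 genes, 5 of them among the 6, with Rlbp1 at an adjusted p of 0.071. Depth limits genes near 1 CPM, and HOM 1 and HOM 2 were the shallowest. Without them 9 genes were called.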
